A study of Saccharomyces cerevisiae with 27 samples.

Results

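The DBP genes of Saccharomyces cerevisiae encode DEAD-box proteins, a family of RNA helicases. The genes described here are DBP1, DBP2, DBP3, DBP5, DBP6, DBP7, DBP8, DBP9 and DBP10, 9 of the 5656 genes measured, found by gene symbol in the probe annotation of the arrays. They were taken up because their levels over the 9 groups of arrays, above all those of DBP2, showed transient and lasting change. The levels and differences of these 9 genes are therefore given as a description, without p-values. All 9 gene IDs matched the RefSeq gene table, in which the name DBP4 is a synonym of HCA4 (YJL033W). HCA4 was annotated under that symbol and is described with the other DEAD-box genes.

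DEAD-box proteins bind RNA, hydrolyse ATP and pry short duplexes apart or strip proteins from RNA. Most DEAD-box proteins of yeast act in the nucleolus, where ribosomal RNA is cut, folded and packed into the large 60S and small 40S subunits. Others act on messenger RNA, in splicing, export from the nucleus, translation and decay. Genes for ribosome assembly are known to be turned down together when yeast is stressed.

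RNA came from 27 samples of strain X2180-1A, grown in aerated 500 ml fermentor cultures in minimal medium with 2% glucose, and each sample was hybridised to its own one-colour Affymetrix array. The controls grew on at 28 °C, and samples were taken from them after 0, 120 and 240 min, when their OD600 was 0.50, 0.88 and 1.5. Stressed cultures were brought from 28 to 41 °C within 5 min and sampled after 10, 30, 60, 120, 240 and 360 min. Each of these 9 groups holds 3 biological replicates, all of 1 strain, and no sample carries a deletion or a transgene according to the labels. No control was taken at 360 min, so 360 min of heat is compared with the control at 240 min.

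Intensities are the linear values the authors deposited, scaled per array, and differences are in log2 units ± SE from 1 limma fit to all 27 arrays after quantile normalization and an offset of 113.81, which makes the differences of dim genes smaller. A gene was called where its Benjamini-Hochberg adjusted p was under 0.05. Mean intensity per array lay between 748 and 915. The 19 probe sets for non-yeast transcripts, which report the background, averaged 85.4 to 105 on the control arrays, 57.7 to 94.7 after 10 min of heat and 42.8 to 64.2 from 30 min on. For SRB4 the ratio of the 3' to the 5' probe set, which follows RNA quality and labelling, was 1.98 to 2.81 on the control arrays and 2.97 to 5.62 on the heat arrays. For ACT1 this ratio was 0.898 to 1.01 on the control arrays and 0.947 to 1.19 on the heat arrays. The background and the SRB4 ratio moved with heat, the ACT1 ratio less so. The part of the 3' to 5' ratio in the differences below was not tested. Subtracting the background changed the sign or the call of no DBP difference between a heat group and its control. Between heat times it changed some calls. From 10 to 30 min of heat 5 DBP genes were then called lower, against 3 without the subtraction. From 240 to 360 min of heat 0 were then called higher, against 1. Precision is limited throughout by there being 3 arrays in a group.

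DBP2 (YNL112W), the yeast relative of the human helicase p68, acts in the nucleus in the assembly of messenger ribonucleoproteins and has been linked to ribosomal RNA processing and to nonsense-mediated decay. Its message fell within 10 min and did not come back in 6 h of the time course. Its intensity was 2611, 2697 and 2602 in the 3 control cultures at 0 min, 2498, 3162 and 2558 at 120 min and 2587, 2553 and 2704 at 240 min. The 3 control groups overlap, and every control array lies above every heat array.

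After 10 min at 41 °C the intensity of DBP2 was 910.0, 957 and 891. It reached 328, 249 and 274 at 30 min. The values were 296, 405 and 333 after 1 h, and 317, 335 and 279 after 2 h. These last 3 groups overlap one another and form the trough of the time course. At 240 min the intensity was 672, 813 and 709, and at 360 min 856.3, 859.7 and 899.7. The arrays at 240 and 360 min all lie above the trough, and those at 360 min overlap those at 10 min.

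In percent of the mean of its control, DBP2 stood at 34.9% at 10 min, 10.8% at 30 min and 13.1% at 60 min. With the later controls as 100%, it stood at 11.3% after 120 min, 28.0% after 240 min and 33.3% after 360 min. On the log2 scale the difference was -1.32 ± 0.10 after 10 min (n = 3 arrays per group). It was -2.68 ± 0.10 after 30 min, -2.64 ± 0.10 after 60 min and -2.80 ± 0.10 after 120 min, and then shrank to -1.69 ± 0.10 after 240 min and -1.50 ± 0.10 after 360 min. Ordered from the lowest difference among the 5656 genes, DBP2 ranked 201 at 10 min and 49 at 30 min. It ranked 3 at 60 min and 2 at 120 min, then 26 at 240 min and 46 at 360 min. The offset makes the differences of dim genes smaller, so these ranks depend on it, and ranks without it are not given here. Of the 802 genes that were at least 2-fold lower at 30 min, 84.7% had their lowest normalized heat level at that time. For 1.25% it was at 120 min, as for DBP2. These genes were picked for being low at 30 min, which favours a lowest level there. The mean deposited intensity of DBP2 was itself lowest at 30 min, and its arrays at 30, 60 and 120 min overlap.

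The step from 30 to 60 min left DBP2 where it was, with a difference of 0.04 ± 0.10, and so did the step from 60 to 120 min (-0.18 ± 0.10). Between 120 and 240 min it regained 1.05 ± 0.10, rank 5640 of 5656 from the lowest, and between 240 and 360 min 0.19 ± 0.10. The level at 360 min was 0.25 ± 0.10 below that at 10 min by this fit, a difference of -0.07 on the deposited scale, where it was not called. That call was also lost without replicate 2 or 3 at 10 min or without replicate 2 at 360 min (differences of -0.24). The differences between heat and its control at the 6 times, and that between 240 and 120 min of heat, kept their call in every alternative tried for them.

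A second, dimmer probe set also names DBP2, and reads the same RNA samples. The control mean at 0 min was 1574 ± 26.4 (SD, n = 3). Heat means were 509 ± 40.2 after 10 min, 177 ± 23.8 after 30 min, 161 ± 21.6 after 120 min and 419.5 ± 8.77 after 360 min. That is 32.3%, 11.2%, 10.2% and 26.7% of the control at 0 min, against 34.9%, 10.8%, 11.8% and 33.1% for the brighter one. The ratio of the brighter to the dimmer probe set was 1.68 ± 0.04 for the 0 min control and 1.60 ± 0.09 for the 240 min control. Under heat it was 1.60 ± 0.11 after 30 min, 1.94 ± 0.15 after 120 min and 2.08 ± 0.10 after 360 min, so the size of the partial return differs somewhat between the sets. DBP2 carries an unusually long intron for a yeast gene, and which part of the gene each probe set reads is not given in the sources used here.

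**Figure D1:**
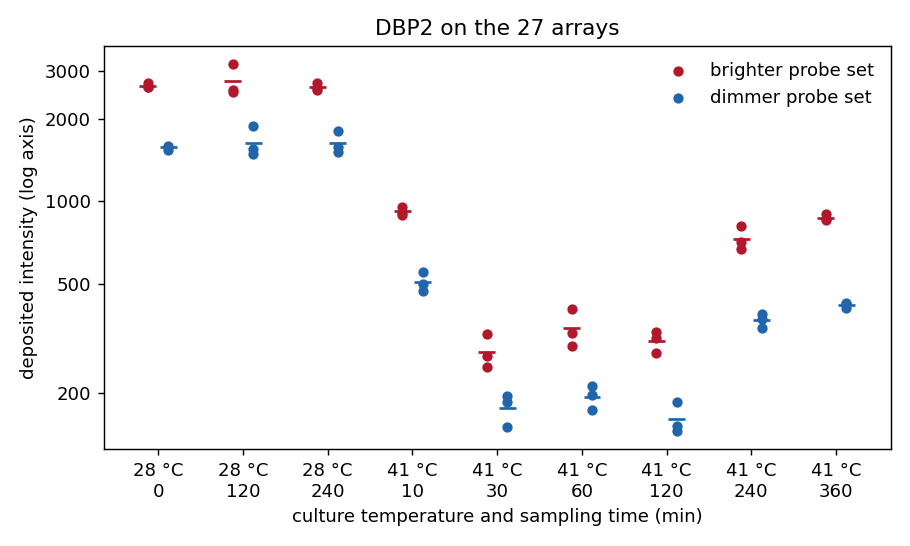
Deposited intensity of the 2 DBP2 probe sets on each of the 27 arrays (log axis), by culture temperature and sampling time; points are arrays and bars are means of 3. Both sets are lower on all 18 heat arrays than on all 9 control arrays, lowest from 30 to 120 min, and partly back at 240 and 360 min.

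DBP3, DBP6, DBP7, DBP9 and DBP10 encode helicases of 60S assembly and DBP8 one of 40S assembly. These 6 genes shared an early, deep fall that was partly made up by 60 min. At 10 and 30 min all 6 stood at 9.4% to 32.7% of the control at 0 min, at 60 min they stood at 61.6% to 95.5%, and at 360 min at 92.2% to 168% of the control at 240 min. At 120 min the log2 differences from the control of that time were -0.68 for DBP3, -0.48 for DBP6 and -0.18 for DBP7. They were -0.52 for DBP8, -0.38 for DBP9 and -0.52 for DBP10. At 240 min the differences lay between -0.27 (DBP9) and 0.18 (DBP7), with -0.25 for DBP3. In all 6 the arrays at 10 and at 30 min lie below all control arrays at 0 min, as they do for 39.2% and 41% of all tested genes.

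DBP3 (YGL078C), which helps cleavage in the first internal spacer of the ribosomal RNA precursor, had intensities of 748, 751 and 898 in controls at 0 min, 93.5, 97.7 and 69.4 at 10 min and 81.4, 68.3 and 76.6 at 30 min. At 60 min it was back at 533, 536 and 559, and at 360 min at 841, 722 and 777. The heat arrays at 60 min are still below the control, and those at 360 min overlap the control at 240 min (791, 714 and 752). Its log2 difference was -2.19 ± 0.08 at 10 min and -2.25 ± 0.08 at 30 min, against -0.59 ± 0.08 at 60 min and -0.05 ± 0.08 at 360 min. At 10 min the level of DBP3 was that of the background probe sets, so the size of its fall is uncertain there.

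DBP6 (YNR038W) acts in the earliest 60S particles. Its intensity went from 943, 922 and 1066 in controls at 0 min to 194, 198 and 149.5 at 10 min and 147, 139.7 and 138.5 at 30 min, and was 712, 852 and 759 at 60 min. At 360 min the values of 977, 1125 and 897 overlapped those of the 240 min control (1057, 985 and 1211). The log2 differences were -1.85 ± 0.08, -2.04 ± 0.08, -0.42 ± 0.08 and -0.20 ± 0.08 at these 4 times. The last is called by this fit, but not on the deposited scale (-0.11), without an offset (-0.23), with all probe sets averaged (-0.18), in a fit of these groups alone (-0.20), or when replicate 1 or 3 of either group is left out (-0.21 to -0.12).

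DBP7 (YKR024C), another early 60S factor, was the only one of the 6 called higher than its control at 360 min. It had intensities of 372, 332 and 369 in controls at 0 min, 58.5, 49.2 and 63.7 at 10 min and 80.0, 61.7 and 78.1 at 30 min. The values at 10 min are no higher than the background, which leaves the size of this fall uncertain too. By 60 min it had 292, 407 and 327, overlapping the controls, and by 360 min 633, 589 and 593 against 374, 335 and 372 in the 240 min control. In log2 units it differed by -1.50 ± 0.09 at 10 min, -1.34 ± 0.09 at 30 min and 0.46 ± 0.09 at 360 min. The difference at 360 min lay between 0.42 and 0.60 in the alternatives tried.

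DBP8 (YHR169W), whose protein works on the 40S precursor with the cofactor Esf2, had 539, 524 and 670 in controls at 0 min, 146.5, 145 and 116 at 10 min and 98.4, 109 and 119 at 30 min. It was at 360.1, 424 and 395 at 60 min and at 569, 667 and 637 at 360 min, when it overlapped the control. At these 4 times its log2 difference was -1.44 ± 0.08, -1.60 ± 0.08, -0.57 ± 0.08 and 0.01 ± 0.08.

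DBP9 (YLR276C) and DBP10 (YDL031W) complete the 60S group. DBP9 had 959, 784 and 1061 in controls at 0 min, 234, 254 and 256 at 10 min, 114, 95.9 and 108 at 30 min and 577, 719 and 577 at 60 min. It fell further from 10 to 30 min, by 0.72 ± 0.12 on the log2 scale, and at 360 min its difference was 0.02 ± 0.12. DBP10 had 515, 510.1 and 595 in controls at 0 min, 176, 183 and 171 at 10 min and 176, 168 and 173 at 30 min, the shallowest fall of the 6 at 30 min (-1.14 ± 0.08). At 60 min it had the lowest percentage of the 6, with 349, 314 and 335 (-0.69 ± 0.08). By 360 min it was at 701.9, 540.3 and 639.6, a difference of 0.11 ± 0.08 that was not called. The difference was 0.23 on the deposited scale and 0.20 without replicate 2 at 360 min, and called in both.

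DBP5 (YOR046C) encodes the helicase that releases messenger RNA at the cytoplasmic face of the nuclear pore. Its intensity was 1482, 1382 and 1512 in controls at 0 min and 1182, 1171 and 1402 at 10 min, where the groups overlap. It was 539, 548 and 686 at 30 min, below all controls, and 1603, 1702 and 1556 at 60 min. The log2 differences were -0.19 ± 0.11 at 10 min, -1.15 ± 0.11 at 30 min and -0.02 ± 0.11 at 60 min. Without replicate 3 at 10 min the difference there was -0.32 and called. DBP5 thus dipped at 30 min. At 60 min its deposited intensities all lie above the control at 0 min, while its normalized log2 levels overlap that control. Its means were 1998 ± 311 after 120 min, 1733 ± 86.5 after 240 min and 1701 ± 101 after 360 min. The deposited intensities at 120 min all lie above the control of that time, while the normalized log2 levels overlap, and at 240 and 360 min both overlap the control. The log2 difference at 120 min, 0.30 ± 0.11, was called higher by this fit. It was not called in a fit of these groups alone (0.30), without replicate 1 of that control (0.21) or without replicate 3 of the heat group (0.18).

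DBP1 (YPL119C), a close relative of the translation initiation helicase DED1 (YOR204W), was the only member above the controls at every heat time. Its intensity was 162, 170.5 and 161 in controls at 0 min, 428, 393 and 377 at 10 min and 705, 607 and 642 at 30 min. It was 419, 460 and 457 at 60 min, 399, 365 and 367 at 120 min and 295, 411 and 389 at 360 min, against 172, 186 and 174 in the 240 min control. All 18 heat arrays lie above all 9 control arrays. The log2 differences were 0.93 ± 0.07 at 10 min, 1.49 ± 0.07 at 30 min and 0.91 ± 0.07 at 60 min. From 120 min on they were nearly level, with 0.59 ± 0.07, then 0.57 ± 0.07 at 240 min and 0.54 ± 0.07 at 360 min. After 360 min its intensity was 206% of the 240 min control, and DBP1 is, with DBP2, the member whose arrays stayed apart from the controls at every heat time.

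**Figure D2:**
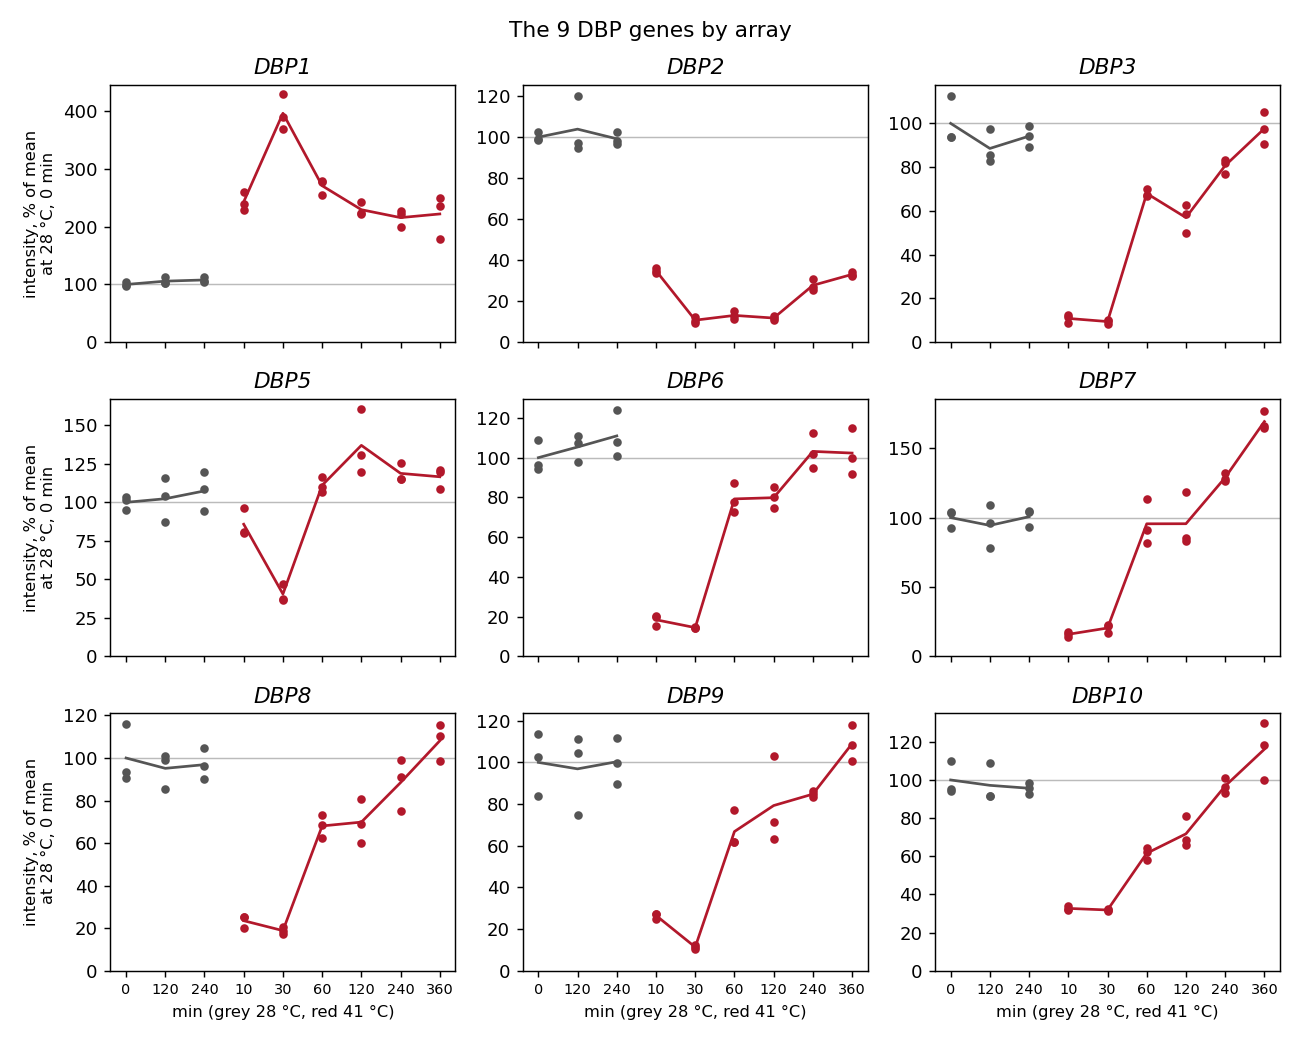
Intensity of the 9 DBP genes on each array, in percent of the gene's mean in the controls at 0 min (linear axes from 0), against sampling time, with lines through the group means, 28 °C in grey and 41 °C in red. DBP2 stays at 10.8% to 34.9% under heat, DBP1 stays above 100%, and the other genes have their low values at 10 or 30 min and return.

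Counted over the family, 7 members were called lower and 1 higher at 10 min, where 38.8% of all tested genes were called lower and 33.8% higher. At 30 min 8 were called lower and 1 higher (40.2% and 40.7% of all genes). At 60 min the counts were 7 and 1 (37.4% and 31.8%), at 120 min against the control of that time 6 and 2 (35.6% and 33.3%), and at 240 min 3 and 1 (33% and 28.3%). Without replicate 1 of the 240 min control, or without replicate 1 of the heat group at 240 min, 2 members in all were called there, and without replicate 2 of that control 6 were. At 360 min 2 were called lower and 2 higher (34.8% and 31%). Since the members were chosen with these comparisons known, nothing is read from these counts.

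The median log2 difference of the 9 members was -1.44 at 10 min, -1.60 at 30 min and -0.57 at 60 min. It was -0.48 after 120 min, -0.15 after 240 min and 0.02 after 360 min. The median of all tested genes lay between -0.04 and 0.00 in the same comparisons. Against 0 min the deposited scale put the median of all genes at 0.14 after 120 min and 0.13 after 360 min, where this fit gives -0.02 and -0.03, so late differences near 0 depend on the scale by about that much. At 360 min 1 member was at least 2-fold lower than the 240 min control, namely DBP2. Among all genes that were at least 2-fold lower at 10 min, 429 in number and 7 of them DBP genes, 40 or 9.32% were still 2-fold lower at 360 min, and the median difference then was -0.32. The plot of the 30 min against the 360 min difference shows DBP2 apart from the other members along the late axis.

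**Figure D3:**
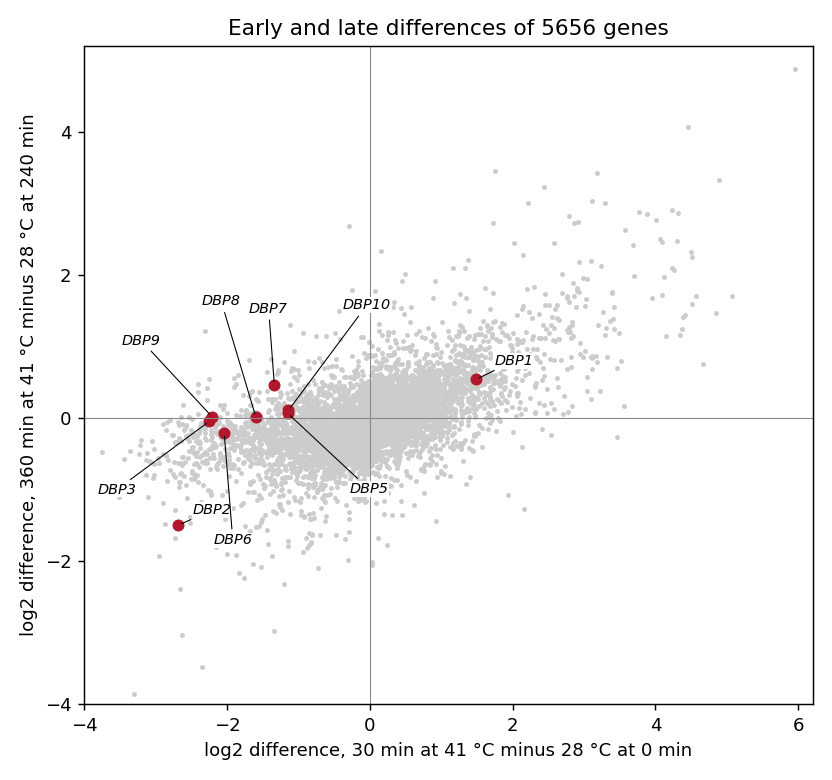
Log2 difference at 30 min of heat (against 28 °C at 0 min) on the x axis and at 360 min (against 28 °C at 240 min) on the y axis, for each of the 5656 tested genes (grey) and the 9 DBP genes (red). DBP2 lies at -2.68 and -1.50, while 7 members with early falls of 1.14 to 2.25 lie between -0.20 and 0.46 on the y axis and DBP1 lies at 1.49 and 0.54.

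In the control cultures the members hardly moved with growth. The log2 differences from 0 min lay between -0.19 and 0.05 at 120 min and between -0.16 and 0.06 at 240 min. No member was called by limma in either comparison. At an unadjusted p under 0.05 the numbers were 1 of 9 at 120 min and 0 at 240 min. Over all genes 0% and 0.0707% were called, and 97 and 220 genes had an unadjusted p under 0.05. The intensities of DBP3 at 120 min (661, 779 and 682) overlap those at 0 min, and its normalized log2 levels do not. At 240 min the normalized levels of DBP3 (-0.16) and DBP10 (-0.13) lie below all those at 0 min. The same holds for 367 of the 5656 tested genes at 240 min and for 133 at 120 min.

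The courses of the ribosome assembly members were alike. Over the 9 group means of the log2 level, the pairs among DBP3, DBP6, DBP7, DBP8, DBP9 and DBP10 had correlations between r = 0.915 (DBP7 with DBP10) and r = 0.994 (DBP3 with DBP8). DBP2 correlated with these 6 at r = 0.298 to 0.636, and DBP1 with all others at r = -0.882 to -0.660. These values describe 9 points that share the arrays and the 3 control groups. The genes whose 9 group means were most like those of DBP2, among 1463 genes brighter than the median that spanned at least 1 log2 unit, were ACC1 (r = 0.986), PRY3 (r = 0.981), ODC2 (r = 0.971), ADE2 (r = 0.962) and SVS1 (r = 0.962).

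ACC1 (YNR016C) encodes acetyl-CoA carboxylase, which makes the malonyl-CoA for fatty acid synthesis. It had an intensity of 6382 ± 186 in the 0 min control, 3896 ± 435 after 10 min of heat, 2179 ± 164 at 30 min, 3007 ± 220 at 120 min and 3773 ± 426 at 360 min. Its trough was shallower than that of DBP2. PRY3 (YJL078C), a cell wall protein, went from 3390 ± 300 to 993 ± 118 at 30 min, 1090 ± 166 at 120 min and 1699 ± 312 at 360 min. ODC2 (YOR222W), a mitochondrial carrier of oxodicarboxylates, went from 1583 ± 16.7 to 219 ± 11.7 at 30 min and 781 ± 139 at 360 min.

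Of the 17 other DEAD-box genes listed, 15 were measured. TIF1 and TIF2, which encode the initiation factor eIF4A, share a probe set that names both and were left out. At 10 min 13 of the 15 fell and 2 rose, at 30 min 9 fell and 4 rose, at 60 min 9 fell and 4 rose, at 120 min 9 fell and 3 rose, at 240 min 8 fell and 2 rose, and at 360 min 6 fell and 4 rose. Over all tested genes 38.8% were called lower and 33.8% higher at 10 min, and 40.2% and 40.7% at 30 min. These shares were 37.4% and 31.8% at 60 min, 35.6% and 33.3% at 120 min, and 33% and 28.3% at 240 min. At 360 min they were 34.8% and 31%, so the counts at 360 min are near the background. On the deposited scale the late counts were 5 falls and 4 rises at 120 min, 6 and 4 at 240 min and 3 and 5 at 360 min. The median log2 difference was -0.66 at 10 min, -0.77 at 30 min and -0.12 at 360 min, and the last is 0.05 on the deposited scale.

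The helicases of ribosome assembly in this list fell early. HCA4 (YJL033W), the DBP4 of the 40S pathway, went from an intensity of 658 ± 98.5 (SD, n = 3) to 202 ± 12.8 at 10 min and 117 ± 11.5 at 30 min, log2 differences of -1.24 ± 0.07 (limma adjusted p = 4.07e-13) and -1.69 ± 0.07 (adjusted p = 4.87e-16). It was still lower at 240 min (-0.52 ± 0.07, adjusted p = 2.38e-06). At 360 min its difference of -0.30 ± 0.07 (adjusted p = 0.00124) was -0.19 and not called on the deposited scale. Of the other DEAD-box genes HCA4, SPB4, ROK1, SUB2 and HAS1 were called lower at all 6 heat times. Only HAS1 (YMR290C), which serves both subunits, kept all 6 calls in every alternative tried. It went from 1274 ± 127 to 179 ± 4.74 at 30 min (-2.19 ± 0.09, adjusted p = 2.11e-16) and was lower at 120 min (-1.18 ± 0.09, adjusted p = 1.38e-10) and at 360 min (-0.55 ± 0.09, adjusted p = 1.74e-05).

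DRS1 (-1.64 ± 0.09) and MAK5 (-1.33 ± 0.08) of the 60S pathway and RRP3 (-1.90 ± 0.11) and ROK1 (-1.07 ± 0.07) of the 40S pathway fell at 30 min by limma (adjusted p of 1.03e-12 or less). SPB4 (-0.91 ± 0.08), of the 60S pathway, and FAL1 (-0.63 ± 0.07), a relative of eIF4A in the 40S pathway, also fell (adjusted p = 2.34e-10 and 4.64e-08). Some of these genes reached the background of 49.0 to 64.2 at 30 min, with intensities of 27.9 to 30.7 for ROK1, 38.3 to 49.8 for DRS1, 61.4 to 70.8 for MAK5 and 61.1 to 88.8 for FAL1, so the sizes of their falls are uncertain. Over the alternatives the difference ran from -2.59 to -1.03 for ROK1 and from -2.94 to -1.28 for DRS1. RRP3 had turned by 120 min, when it was called higher than its control (0.40 ± 0.11, adjusted p = 0.00339), though the normalized log2 levels of these groups overlap. At 240 min its difference was 0.27 ± 0.11 (adjusted p = 0.0432), a call lost in 6 alternatives. RRP3 was also higher at 360 min (0.43 ± 0.11, adjusted p = 0.00193).

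Helicases of messenger RNA took other courses. DED1 went from 3701 ± 225 to 2279 ± 471 at 10 min (-0.59 ± 0.09, adjusted p = 1.99e-06), was 3915 ± 415 at 30 min and 2489 ± 261 at 360 min (-0.52 ± 0.09, adjusted p = 2.16e-05). Its differences at 30 min (0.33) and 60 min (0.29) were called by this fit, and were 0.07 and 0.22 and not called on the deposited scale. The heat arrays of DED1 were thus lower at the end, when those of its relative DBP1 were higher. SUB2, a splicing and export factor, fell at 30 min (-0.77 ± 0.06, adjusted p = 3.36e-11). DHH1, an activator of decapping, rose at 10 min (0.63 ± 0.08, adjusted p = 2.00e-07) and at 30 min (0.93 ± 0.08, adjusted p = 1.64e-10), and had a difference of 0.13 ± 0.08 at 360 min (adjusted p = 0.165).

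The splicing helicase gene PRP28 had intensities near the background, and its difference of -0.09 at 10 min, called by this fit, was 0.01 once the background was subtracted. PRP5, also of splicing, had a difference of 0.22 ± 0.07 at 10 min (adjusted p = 0.0105), which was 0.15 and not called on the deposited scale. That call was also lost without replicate 2 of the control at 0 min (0.19), without replicate 3 at 10 min (0.12) or in a fit of these groups alone. PRP5 was higher at 30 min (0.44 ± 0.07, adjusted p = 8.85e-06), 120 min (0.36 ± 0.07, adjusted p = 0.000161) and 360 min (0.34 ± 0.07, adjusted p = 0.000344). The calls at 30, 120 and 360 min held in every alternative tried. At 60 min its difference of 0.18 lost its call in some alternatives, and at 240 min 0.15 was not called by this fit. Of the mitochondrial helicases, MSS116, which aids intron splicing there, fell at 10 min (-0.52 ± 0.13, adjusted p = 0.00122) and rose at 30 min (0.42 ± 0.13, adjusted p = 0.00616). MRH4, of mitochondrial ribosome assembly, was called higher at 60 min (0.33 ± 0.06, adjusted p = 5.71e-05) and at each later time. Its differences were 0.44 ± 0.06 at 120 min, 0.45 ± 0.06 at 240 min and 0.54 ± 0.06 at 360 min (adjusted p = 1.10e-07 at 360 min). At 10 min it was called lower (-0.22 ± 0.06), but with the background subtracted this was -0.04 and not called.

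**Figure D4:**
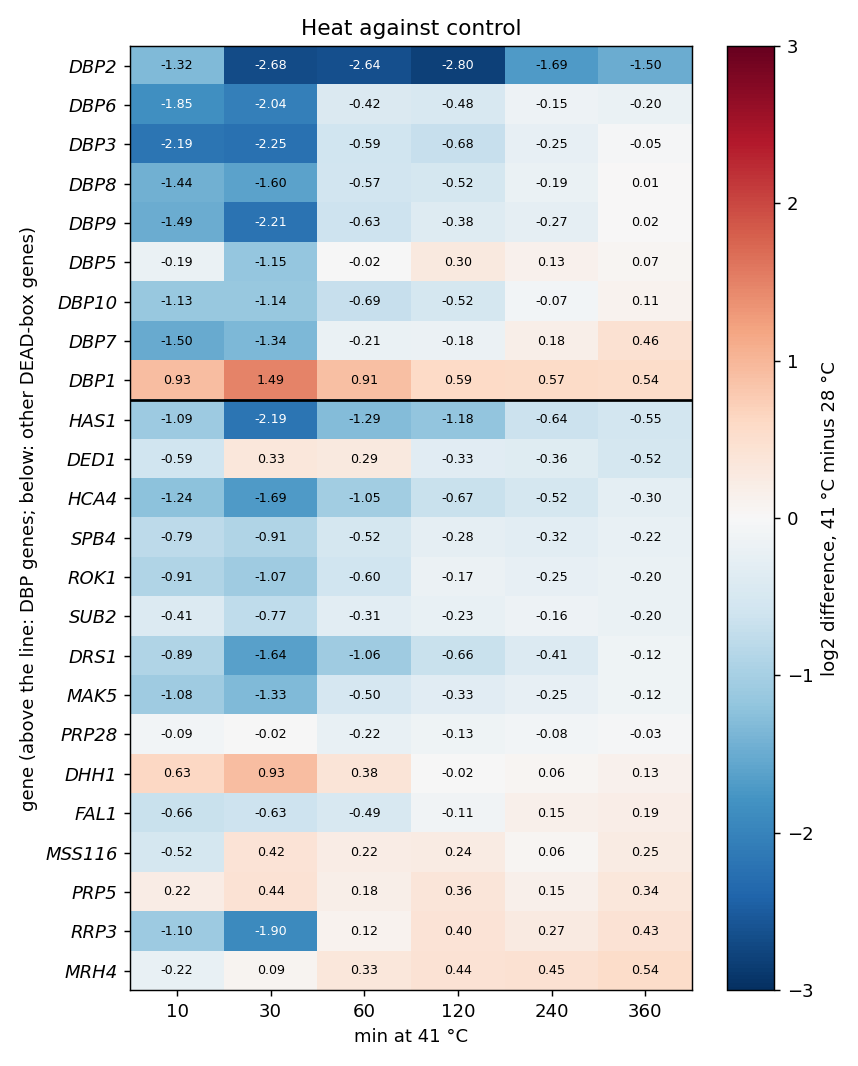
Log2 difference between 41 and 28 °C for each DBP gene (above the line) and each of the 15 other DEAD-box genes (below it) at 6 heat times; 10, 30 and 60 min are against the control at 0 min, 120 and 240 min against the control of that time, and 360 min against the control at 240 min. DBP2 is the only row with differences below -1 at all 6 times; rows within each block are sorted by the value at 360 min.

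The partners of these helicases were followed in lists chosen by function. The shares of all tested genes called lower, against which their counts are read, were 38.8% at 10 min, 40.2% at 30 min and 34.8% at 360 min, and the shares called higher 33.8%, 40.7% and 31%. Of the 40 listed genes of 60S assembly 38 fell at 10 min, 40 at 30 min and 21 at 360 min, when 4 rose. Their median log2 difference was -1.31, -1.85 and -0.22 at these times, with NIP7 (-2.89 ± 0.08, limma adjusted p = 1.83e-19) and RRB1 (-2.21 ± 0.10, adjusted p = 8.31e-16) lowest at 10 min. Of the 44 genes of 40S assembly 43 fell at 10 min, 43 at 30 min and 18 at 360 min, when 5 rose, with medians of -1.34, -1.67 and -0.07. On the deposited scale 12 of the 60S list fell and 5 rose at 360 min, and 10 of the 40S list fell and 11 rose. NOP1, the fibrillarin that methylates ribosomal RNA, was lowest of the 40S list at 10 min (-3.04 ± 0.13, adjusted p = 7.97e-16) and at 360 min (-1.01 ± 0.13, adjusted p = 5.02e-07).

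Of the 21 measured genes of messenger RNA export, the pathway of DBP5, 12 fell and 3 rose at 10 min, and 4 fell and 5 rose at 360 min, no more than the background in either direction at the later time. YRA2, an export adaptor, had the largest fall of the list at 360 min (-1.16 ± 0.06, adjusted p = 1.81e-13), and GFD1, a partner of Dbp5, the largest rise at 10 min (0.59 ± 0.10, adjusted p = 2.03e-05). Of 11 cap-binding and scanning factors, which work beside Ded1 and Dbp1, 8 fell and 1 rose at 10 min, and 7 fell and 1 rose at 360 min. TIF4631, a gene for the scaffold factor eIF4G, fell at both times (-1.78 ± 0.09, adjusted p = 3.65e-14, and -0.62 ± 0.09, adjusted p = 5.25e-06). Of the 5 genes of nonsense-mediated decay 2 fell and 1 rose at 10 min, and 0 fell and 2 rose at 360 min. These are too few genes to set apart from the shares of all tested genes. Those that fell at 10 min were EBS1 (-0.78 ± 0.10, adjusted p = 1.85e-07) and NAM7, which encodes Upf1 (-0.66 ± 0.07, adjusted p = 9.18e-09). NMD4 rose at 10 min (0.90 ± 0.10, adjusted p = 2.97e-08) and at 360 min (0.33 ± 0.10, adjusted p = 0.00672), and NMD2 rose at 360 min (0.46 ± 0.10, adjusted p = 0.000428). Of 10 helicases of the DEAH and Ski2-like families 8 fell and 1 rose at 10 min, DHR2 (-1.85 ± 0.09, adjusted p = 4.22e-15) and MTR4 (-1.61 ± 0.08, adjusted p = 1.98e-14) the most. At 360 min 1 of them fell and 3 rose, no more than the background in either direction.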

How the data were processed

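Per the submitters' processing notes the authors made the values with MAS5. No version or scaling target was found in those notes. What they deposited is a linear intensity for each of 9335 probe sets on every array, with none below 20. Of these, 6504 name 1 gene, and the brightest probe set by mean over all arrays was kept for each of 5656 genes. The 328 that name several genes were left out. Array medians differed by a ratio of 1.28, above the limit of 1.2 set for the deposited scale, so the arrays were quantile normalized, and 113.81 (the 10th percentile) was added before the log2 step. Limma 3.58.1 in R 4.3.3 fitted 1 mean per group over 27 arrays, with eBayes and a trend. Its adjusted p-values are Benjamini-Hochberg values over all tested genes within each of 17 comparisons. Comparisons against the same control group share its arrays. The code was tested on simulated data.

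The members, the gene lists and the tests were chosen with earlier results of these data known. Named were the 9 members, all other DEAD-box genes, the 5 genes most like DBP2 and, from the other lists, some of the genes with the largest falls or rises at 10 or 360 min, up to 2 each. From the lists of 60S assembly, 40S assembly, cap-binding and scanning factors and other helicases only falls are named. Each of these lists also held at least 1 gene called higher at 360 min. The labels call the replicates biological, and cultures were sampled repeatedly.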

Additional observations from a re-analysis of the deposited data

Results flagged for a closer look

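The heat effect differed between 120 and 240 min, each against its own control, for 3 DBP genes and 1 other DEAD-box gene, in a contrast that called 601 of 5656 genes (10.6%). The effect at 240 min minus that at 120 min was 1.11 ± 0.14 (SE) for DBP2, from -2.80 to -1.69, 0.43 ± 0.11 for DBP3, from -0.68 to -0.25, and 0.45 ± 0.11 for DBP10, from -0.52 to -0.07. For HAS1 it was 0.54 ± 0.13, from -1.18 to -0.64 (limma adjusted p = 0.00963). The 4 differences have the same direction, towards the control. Since the DBP genes were chosen with their time courses known, their values are a description.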

How the results depend on the processing

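Of 72 differences of the DBP genes other than DBP2, over 9 comparisons, 0 changed sign where called and 15 changed their call in at least 1 alternative. In the same 9 comparisons, of which 4 were added after seeing the data, DBP2 changed its call only for 360 against 10 min (-0.25), on the deposited scale (-0.07) and in 3 of the fits without 1 array (each -0.24, of a range from -0.27 to -0.24). Of 135 differences of the other DEAD-box genes 34 changed their call and that of PRP28 at 10 min changed sign (0.01) with the background subtracted. The number of genes called between controls at 240 and 0 min (4) was 7 on the deposited scale, 2 with an offset of 50, 7 with the culture as a random block, 10 with the background subtracted and 1 to 3 without an array. Between 240 and 120 min of heat, 1188 genes were called, 549 in a fit of these groups alone and 791 to 1136 without an array, and 3 and 1 other DEAD-box genes. Without dim genes 8 of the other DEAD-box genes were called at 60 min, against 13, as fewer were tested and PRP5 lost its call (0.09). At 240 min 2 to 6 members were called without an array, against 4. Causes were not tested. For DBP2 at 360 min the control at 0 min gave -1.57 in place of -1.50. With the replicate block 8 members were called at 10 min and 4 at 360 min, and no count moved by over 1.5 times. Same-numbered heat arrays deviated together in 23 of 45 pairs (r over 0.1), with a median of 0.125 against -0.042 for differently numbered heat arrays. These values do not settle whether a number marks 1 culture, and the labels do not say so. The main fit did not pair the arrays, so its SEs between heat times treat them as independent. With the culture as a random block the correlation within a culture was estimated at 0.086. The lowest levels of DBP3, DBP7, ROK1, DRS1, MAK5, FAL1, PRP28 and MRH4 lie at or near the background, which limits their differences.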
